A study of Homo sapiens with 24 samples.

Results

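Kinesins are the motor proteins that walk along microtubules or take them apart. The kinesin genes were taken by name, as every symbol of the deposited expression table that begins with KIF followed by a number and, where present, a letter, or that is KIFC1, KIFC2 or KIFC3. This gave 42 genes of 25161 symbols, each with 1 row in the table of 25575 rows, so that no choice between rows was needed. By their known main role, 15 were placed with the mitotic kinesins, 15 with the transport kinesins and 12 with the other kinesins. The kinesin gene CENPE and the kinesin-like gene STARD9 do not carry such a name and were not counted, although CENPE is described below with the partners of the mitotic motors.

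Expression was measured on 24 Clariom D arrays, a whole-transcriptome microarray, from 2 established human B-cell lymphoma lines. SU-DHL-4 came from a diffuse large B-cell lymphoma, DG-75 from a Burkitt lymphoma. Treatment lasted 72 h and consisted of DMSO as the solvent control, Entospletinib at 1 µM (Ento), AZD5153 at 0.01 µM (AZD), or these doses of the 2 agents together (Ento+AZD). The 8 groups of line and treatment held 3 biological replicates each. Ento inhibits the kinase SYK, which acts below the B-cell receptor, and AZD is a bivalent inhibitor of BET proteins, which read acetylated chromatin. Each line stands for 1 tumour. The B-cell genes CD79A and CD22 lay between 11.21 and 12.43 and between 9.74 and 11.64 over all arrays on the log2 scale, and the T-cell gene CD3G between 1.80 and 2.61. Array medians ranged from 4.89 to 5.14, and the correlation across genes between arrays of the same group was 0.981 to 0.992. No detection value came with the table, so a low log2 value could not be assigned to a gene being expressed or not. With 3 arrays in a group, the number of arrays limited the precision of every value. In such bulk RNA, fewer cells in a phase of the cell cycle and less RNA per cell cannot be told apart.

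Mitotic kinesins build the spindle, move and align chromosomes and organise the middle of the spindle during cytokinesis. Most of them are made only as cells approach division, and their promoters often carry a cell cycle genes homology region (CHR), read by the DREAM and FOXM1 complexes, next to CCAAT boxes, read by the factor NF-Y. Transport kinesins carry vesicles, mitochondria and other cargo along microtubules in dividing and resting cells alike.

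Changes are differences of mean log2 values with their standard error (SE), from a limma model with treatment and array number (1 to 3 in the labels) as terms, fitted for each line on its own unless stated. The term called is used for genes with a fold change above 2 and an adjusted p (Benjamini-Hochberg, all rows) under 0.05, as in the methods of the study.

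The 4 SU-DHL-4 arrays numbered 2 often held the lowest values of the mitotic kinesins. Under Ento, 14 of the 15 mitotic kinesins had their lowest value of the group in array 2, under AZD 11, under Ento+AZD 13 and under DMSO 10, whereas that array held the lowest value for 50.9%, 27.9%, 41.4% and 26.3% of all rows. The medians of these arrays, 4.91 to 5.13, lay within the range of the other arrays. Under Ento in SU-DHL-4, array 2 was also lowest for 11 of the 15 transport and 10 of the 12 other kinesins. In DG-75 single treated arrays of other numbers read low in the same way. AZD array 1 held the lowest value for 14 of the 15 mitotic kinesins, Ento+AZD array 1 for 12 and Ento array 3 for 12. These DG-75 arrays held it for 39.3%, 24% and 38.7% of all rows. Several of the counts and class medians that rest on the 4 SU-DHL-4 arrays numbered 2 are also given without them. The sources do not say whether the array numbers mark shared batches.

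The promoter windows of the classes were described by their letters. The RefSeq promoter table (GRCh38.p14, 250 bases before to 50 after a transcript start) held 34 of the 42 kinesins, with all 15 mitotic, 11 of the 15 transport and 8 of the 12 other kinesins. KIF5A, KIF13B, KIF19, KIF21B, KIF26B, KIF27, KIFC2 and KIFC3 were unmatched. Each window was searched on both strands for the CHR core TTTGAA or TTCGAA, for CCAAT, and for the E2F letters TTTGGCGC or TTTCGCGC. A CHR core was found in 11 of 15 mitotic kinesins (73.3%), in 1 of 11 transport kinesins (9.09%), in 1 of 8 other kinesins (12.5%) and in 17.6% of the 17249 matched genes of the array. CCAAT was found in 73.3%, 36.4%, 37.5% and 41.7% of these genes, and both together in 66.7%, 9.09%, 12.5% and 7.24%. The E2F letters were found in KIF15 alone among the kinesins and in 1.77% of the genes of the array. In the 11 mitotic kinesins, the CHR core nearest to the start began between positions -55 (KIF23) and 25 (KIF20B), whereas that of KIF5B began at -140. The single CHR core among the other kinesins was that of KIF24. These are letter matches and not binding sites, and a window without a match lacks only these letters.

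**Figure D1:**
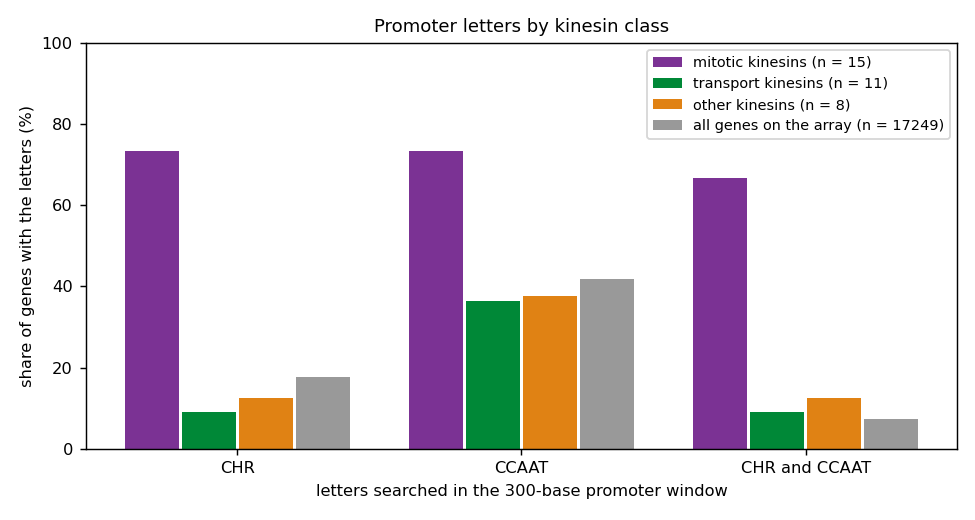
Share of genes (%) whose 300-base promoter window holds the CHR core, CCAAT or both, for the mitotic, transport and other kinesins and for all matched genes on the array. The CHR core stands in 73.3% of the mitotic kinesins against 9.09% of the transport kinesins and 17.6% of all matched genes.

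The promoters below belong to the 6 mitotic kinesins called lower under Ento+AZD over both lines, as described further on. Beside them stand 2 transport kinesins for comparison, KIF5B as the transport kinesin with a CHR core and KIF3A as one without. Each runs 5′ to 3′ in the direction of transcription, from 150 bases before the start through its first 30 bases. Capitals mark the CHR core and CCAAT, each on either strand.
KIF14: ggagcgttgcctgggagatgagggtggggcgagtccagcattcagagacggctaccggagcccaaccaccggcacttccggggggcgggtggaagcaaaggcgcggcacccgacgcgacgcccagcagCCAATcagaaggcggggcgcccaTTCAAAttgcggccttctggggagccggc
KIF4A: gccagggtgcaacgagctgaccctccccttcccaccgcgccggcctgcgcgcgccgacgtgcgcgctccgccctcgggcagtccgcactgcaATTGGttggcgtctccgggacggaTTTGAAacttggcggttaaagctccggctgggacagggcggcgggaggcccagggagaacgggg
KIF23: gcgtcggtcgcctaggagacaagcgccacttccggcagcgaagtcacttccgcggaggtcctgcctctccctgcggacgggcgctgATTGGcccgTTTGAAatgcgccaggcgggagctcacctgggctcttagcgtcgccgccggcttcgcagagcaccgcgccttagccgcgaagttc
KIFC1: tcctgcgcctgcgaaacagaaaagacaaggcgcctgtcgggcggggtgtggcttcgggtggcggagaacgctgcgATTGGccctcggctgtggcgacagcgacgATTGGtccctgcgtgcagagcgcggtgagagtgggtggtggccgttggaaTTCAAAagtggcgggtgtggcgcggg
KIF20A: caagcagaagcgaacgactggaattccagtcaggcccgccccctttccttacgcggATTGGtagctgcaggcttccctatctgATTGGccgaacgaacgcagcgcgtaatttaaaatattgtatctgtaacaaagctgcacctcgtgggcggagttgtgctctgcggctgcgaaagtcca
KIF2C: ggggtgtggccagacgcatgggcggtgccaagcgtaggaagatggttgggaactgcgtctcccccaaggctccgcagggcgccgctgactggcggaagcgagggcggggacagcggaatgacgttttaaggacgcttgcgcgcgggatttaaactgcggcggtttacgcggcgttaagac
KIF5B: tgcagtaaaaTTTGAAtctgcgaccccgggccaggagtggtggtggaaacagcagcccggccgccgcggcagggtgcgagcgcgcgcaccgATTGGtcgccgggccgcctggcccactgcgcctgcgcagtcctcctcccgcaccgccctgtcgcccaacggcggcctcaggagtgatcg
KIF3A: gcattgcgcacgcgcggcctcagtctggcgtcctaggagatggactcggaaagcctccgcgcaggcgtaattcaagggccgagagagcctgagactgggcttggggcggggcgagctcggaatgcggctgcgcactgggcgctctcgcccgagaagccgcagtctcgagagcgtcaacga
In the GRCh38.p14 build these are KIF14 on the minus strand of chr1:200620722-200620901, KIF4A on the plus strand of chrX:70289954-70290133, KIF23 on the plus strand of chr15:69414199-69414378, KIFC1 on the plus strand of chr6:33391673-33391852, KIF20A on the plus strand of chr5:138178962-138179141, KIF2C on the plus strand of chr1:44739687-44739866, KIF5B on the minus strand of chr10:32056396-32056575 and KIF3A on the minus strand of chr5:132737517-132737696. KIF14, KIF4A, KIF23 and KIFC1 hold a CHR core and CCAAT close to the start. KIF20A holds CCAAT at 2 places and no CHR core of the searched spelling, and KIF2C holds neither.

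Ento+AZD was compared with DMSO in SU-DHL-4 to ask how the combination changes the motor genes. In this comparison 6 kinesins were called lower and none higher, and all 6 were mitotic, beside 1.09% of all rows called lower. KIF20A, which brings the chromosomal passenger complex to the central spindle, fell by 1.82 (SE 0.345, 3.54-fold, adjusted p = 0.0181). Its values were 8.67, 8.40 and 8.95 under DMSO and 7.69, 5.10 and 7.77 under Ento+AZD. All 3 combination arrays lay below all 3 DMSO arrays, and array 2 lay far below the other combination arrays. KIF2C, a microtubule depolymerase at centromeres, read 8.86, 8.55 and 9.54 under DMSO and 7.90, 5.83 and 8.01 under Ento+AZD, a fall of 1.74 (SE 0.331, adjusted p = 0.0185). KIF14, needed for cytokinesis, read 7.68, 7.52 and 8.40 against 6.89, 5.01 and 6.96, a fall of 1.58 (SE 0.276, adjusted p = 0.0123). The same order of arrays held in each of these genes, with array 2 lowest in both groups and array 3 highest.

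KIF4A, a chromokinesin that limits the length of the central spindle, fell by 1.47 in SU-DHL-4 (SE 0.332, adjusted p = 0.0394), from 7.69, 7.63 and 8.14 to 6.92, 5.04 and 7.08. KIF23, the motor of the centralspindlin complex, fell by 1.30 (SE 0.26, adjusted p = 0.0231), from 8.68, 8.48 and 9.10 to 7.84, 6.14 and 8.40. KIFC1, a minus-end directed motor that focuses spindle poles, fell by 1.34 (SE 0.25, adjusted p = 0.0172), from 8.48, 8.62 and 9.12 to 7.78, 6.39 and 8.04. In none of the 3 did the combination arrays reach the DMSO arrays. KIF18B and KIF18A, which shorten microtubules at their plus ends, passed the adjusted p without the fold change, with changes of -0.98 (adjusted p = 0.0142) and -0.83 (adjusted p = 0.0347). KIF18A went from 9.16, 8.85 and 9.37 to 8.55, 7.76 and 8.58. With the transport kinesin KIF5A, 9 kinesins were lower by adjusted p alone, beside 2.06% of all rows. KIF11, which slides spindle microtubules apart and is the target of several antimitotic agents, read 9.22, 9.25 and 9.72 under DMSO and 8.74, 7.78 and 8.93 under Ento+AZD (change -0.91, adjusted p = 0.0567). KIF15, which can share this task, read 6.65, 6.64 and 7.38 against 6.46, 5.17 and 6.24 (change -0.93, adjusted p = 0.063). Neither gene overlapped between the groups, although neither passed the adjusted p. KIF22, a motor on chromosome arms, changed by -0.75 (adjusted p = 0.0651) and KIF20B, a motor of the central spindle, by -0.58 (adjusted p = 0.197).

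These SU-DHL-4 calls rested on the array numbers and on the arrays numbered 2. The count was 0 without the replicate block, that is, without the array number as a term, and 0 when DMSO array 2, Ento+AZD array 2 or all 4 arrays numbered 2 were left out. The count of 9 by adjusted p alone was 1 without the block, 0 without these arrays, 3 without DMSO array 3 or Ento+AZD array 3, and 4 without Ento+AZD array 1. Without those 4 arrays the 6 genes kept lower means, with changes from -0.77 for KIF23 (adjusted p = 0.16) to -1.25 for KIF2C (adjusted p = 0.0549).

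In DG-75, 2 kinesins were called lower under the combination, again mitotic ones, beside 0.708% of all rows called lower. KIF20A read 8.68, 8.35 and 8.56 under DMSO and 6.75, 7.14 and 7.54 under Ento+AZD, a fall of 1.39 (SE 0.269, 2.61-fold, adjusted p = 0.0279). KIF2C read 9.32, 9.16 and 9.38 against 7.64, 7.88 and 8.48, a fall of 1.29 (SE 0.241, adjusted p = 0.0247). Both genes had their lowest combination value in array 1 in this line, not in array 2. By adjusted p alone 8 kinesins were lower, beside 1.87% of all rows, and all were mitotic. The added genes were KIF4A (-0.93), KIF18A (-0.90), KIF23 (-0.84), KIF14 (-0.83), KIF18B (-0.76) and KIFC1 (-0.72), with adjusted p between 0.0214 and 0.0475. KIF14 illustrates the smaller scatter of this line, with 7.62, 7.64 and 7.45 under DMSO and 6.52, 7.06 and 6.64 under Ento+AZD. KIF4A read 8.34, 8.21 and 8.28 against 7.04, 7.49 and 7.52, and KIF23 between 8.92 and 9.07 under DMSO and at most 8.38 under Ento+AZD. KIFC1 read 8.64, 8.72 and 8.77 against 7.78, 8.23 and 7.96, so that in each of these genes the lowest DMSO array stood above the highest combination array. KIF18A had a wider spread, with 9.18, 9.02 and 9.36 against 7.93, 8.35 and 8.57. KIF11 read 9.92, 9.66 and 9.74 under DMSO and 8.91, 9.13 and 9.14 under Ento+AZD, again without overlap, and its change of -0.71 missed the threshold (adjusted p = 0.0512). KIF15 read 6.61, 6.32 and 6.45 against 5.42, 5.73 and 6.01. The 2 calls were lost when DMSO array 1, 2 or 3 or Ento+AZD array 1 or 2 was left out, and the count of 8 by adjusted p alone then became 0 as well. That count was 3 without Ento+AZD array 3, 5 without AZD array 3, with array medians subtracted or in 1 fit of all arrays, and 8 without the replicate block, where the 2 calls stood.

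**Figure D2:**
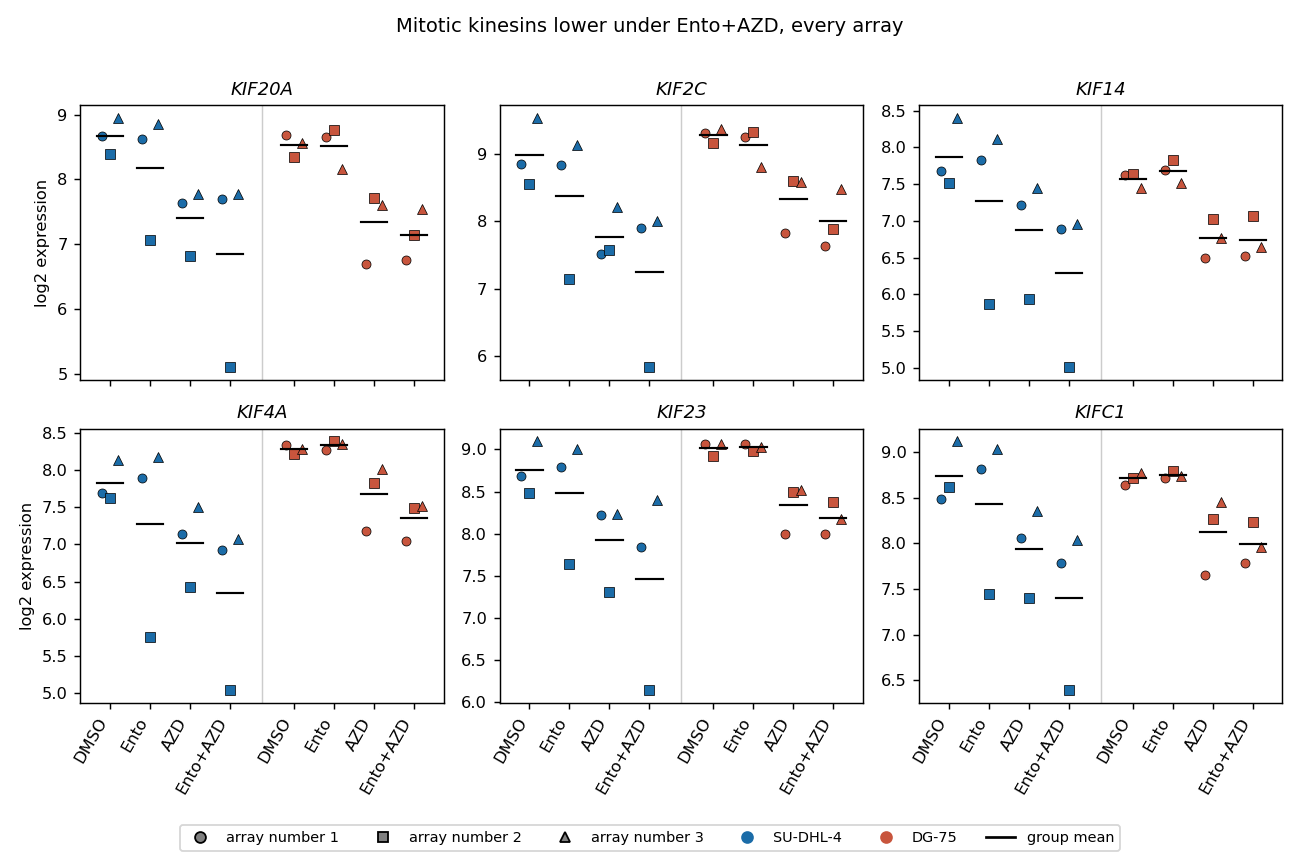
Log2 expression of 6 mitotic kinesins in each of the 24 arrays by line and treatment, with the marker giving the array number and the line the group mean. In both lines all Ento+AZD arrays lie below all DMSO arrays for each of the 6 genes, and the SU-DHL-4 arrays numbered 2 (squares) lie lowest under Ento and Ento+AZD.

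All 24 arrays were then fitted together. The terms were the treatment, shared by the lines, the line itself, and the array number as a separate term within each line. The same comparison called 6 kinesins lower, beside 0.813% of all rows, and none higher. These were KIF20A (-1.60, SE 0.234, adjusted p = 0.000162), KIF2C (-1.51, adjusted p = 0.000138), KIF14 (-1.21, adjusted p = 0.000227), KIF4A (-1.20, adjusted p = 0.000703), KIF23 (-1.07, adjusted p = 0.00019) and KIFC1 (-1.03, adjusted p = 0.000325). By adjusted p alone 14 kinesins were lower, beside 7.03% of all rows, among them 12 of the 15 mitotic kinesins, 1 of the 15 transport kinesins (KIF16B) and 1 of the 12 other kinesins (KIF24). The mitotic kinesins outside this count were KIF2A (-0.14, adjusted p = 0.733), KIF2B (-0.03, adjusted p = 0.942) and KIF4B (-0.27, adjusted p = 0.236). KIF2A is a depolymerase that also acts outside division, KIF2B acts at kinetochores early in mitosis, and KIF4B is a nearly identical copy of KIF4A, so that its probes may read KIF4A in part. KIF2B lay between 3.35 and 4.29 and KIF4B between 2.60 and 3.69 over all arrays. Without the 4 SU-DHL-4 arrays numbered 2, the count by adjusted p was again 14, while 2 kinesins, KIF20A and KIF2C, kept a fold change above 2. The other 4 (KIF14, KIF23, KIF4A and KIFC1) then changed by -0.79 to -0.95, with adjusted p from 0.000114 to 0.000415. The same 2 kept it without SU-DHL-4 DMSO array 2 alone. KIF23 and KIFC1 fell short of the fold change, leaving 4 calls, with quantile normalization, with array medians subtracted or without SU-DHL-4 Ento+AZD array 2.

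Of the 13 kinesins with a CHR core in the promoter table, 11 were lower by adjusted p over both lines, with a median change of -0.84 for the 13, and the 2 others were KIF4B and KIF5B. Of the 21 matched kinesins without a CHR core, 3 were lower (KIF2C, KIF20A and KIF16B), with a median change of -0.07 for the 21. Over all matched rows of the array, 11.2% of the 3064 with a CHR core and 7.66% of the 14367 without one were lower by adjusted p, beside 7.03% of all rows tested, and the median change was -0.10 and -0.09. KIF24 carried a CHR core and CCAAT and was the other kinesin that changed with the mitotic ones. It binds the centriole protein CP110 and restrains the growth of cilia. Its values in SU-DHL-4 were 5.79, 6.38 and 6.76 under DMSO and 5.70, 5.09 and 5.66 under Ento+AZD, and in DG-75 they were 6.33, 6.70 and 6.24 against 5.40, 5.54 and 5.89. The groups did not overlap in either line, and the change over both lines was -0.82 (SE 0.156, adjusted p = 0.00172). The classes overlapped with the CHR core, so the part of either in these counts was not tested.

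**Figure D3:**
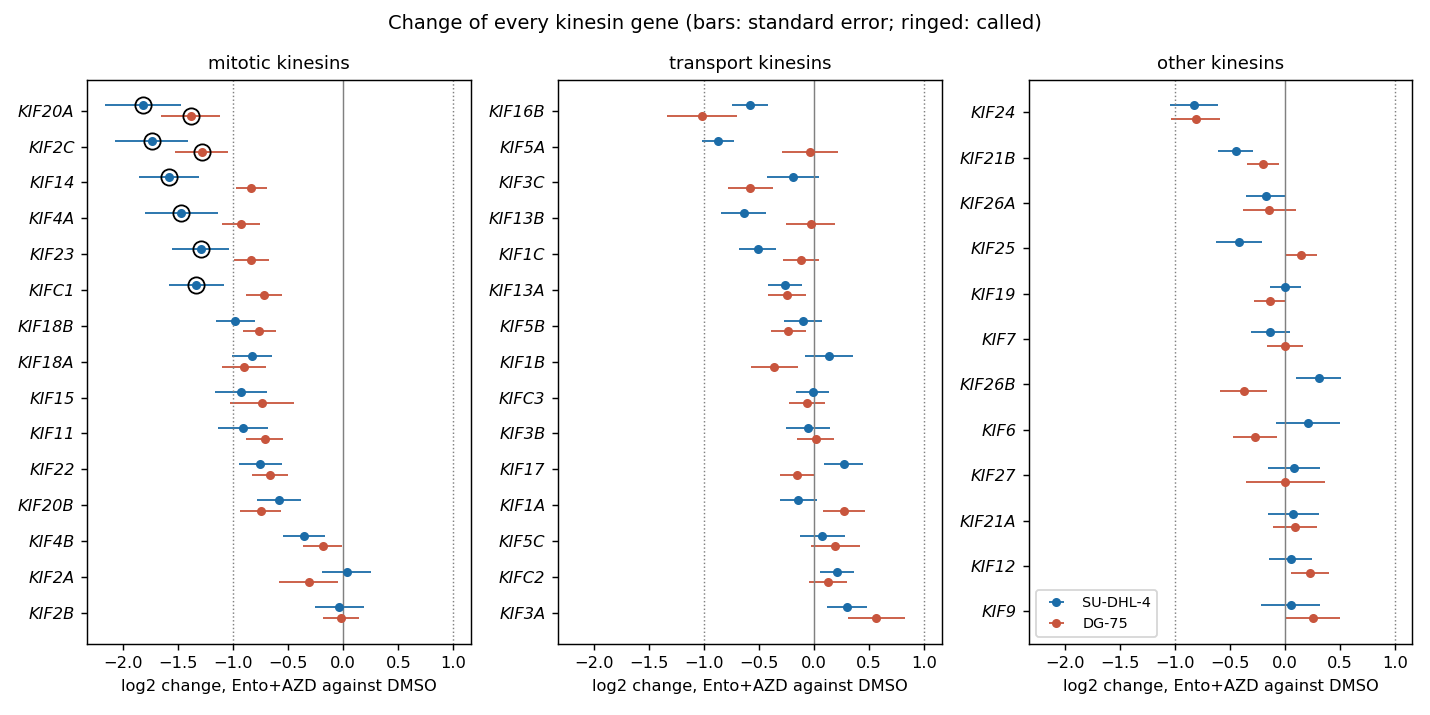
Log2 change under Ento+AZD against DMSO with its standard error for each of the 42 kinesins in SU-DHL-4 (blue) and DG-75 (red), by class, with called genes ringed and dotted lines at a fold change of 2. The mitotic kinesins from KIF20A to KIF20B lie to the left of 0 in both lines, and most transport and other kinesins lie near 0.

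As a class the mitotic kinesins had a median change of -0.93 for SU-DHL-4 and -0.75 for DG-75 under Ento+AZD. The transport kinesins had medians of -0.10 and -0.06, the other kinesins 0.03 and -0.07, and all rows -0.08 and -0.07. Without the 4 arrays numbered 2, the SU-DHL-4 medians were -0.70 for the mitotic, -0.09 for the transport and -0.02 for the other kinesins and -0.06 for all rows. All 3 combination arrays lay below all 3 DMSO arrays for 12 of the 15 mitotic kinesins in SU-DHL-4 and for 12 of 15 in DG-75. The transport kinesins gave 5 of 15 and 1 of 15, the other kinesins 2 of 12 in both lines, and all rows 16.0% and 14.0%. Between arrays of the same number, the median mitotic difference was -0.61, -1.47 and -0.90 in SU-DHL-4 and -1.07, -0.54 and -0.76 in DG-75. The transport medians were -0.04, -0.17 and -0.25 in SU-DHL-4 and -0.09, 0.15 and -0.24 in DG-75. The mitotic median was thus below that of the transport kinesins in each of the 6 same-numbered comparisons. Subtracting the median of each array moved the median of all rows in SU-DHL-4 from -0.08 to 0.05, that of the mitotic kinesins to -0.80 and that of the transport kinesins to 0.03, so that the sign of the transport median depended on the scaling.

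**Figure D4:**
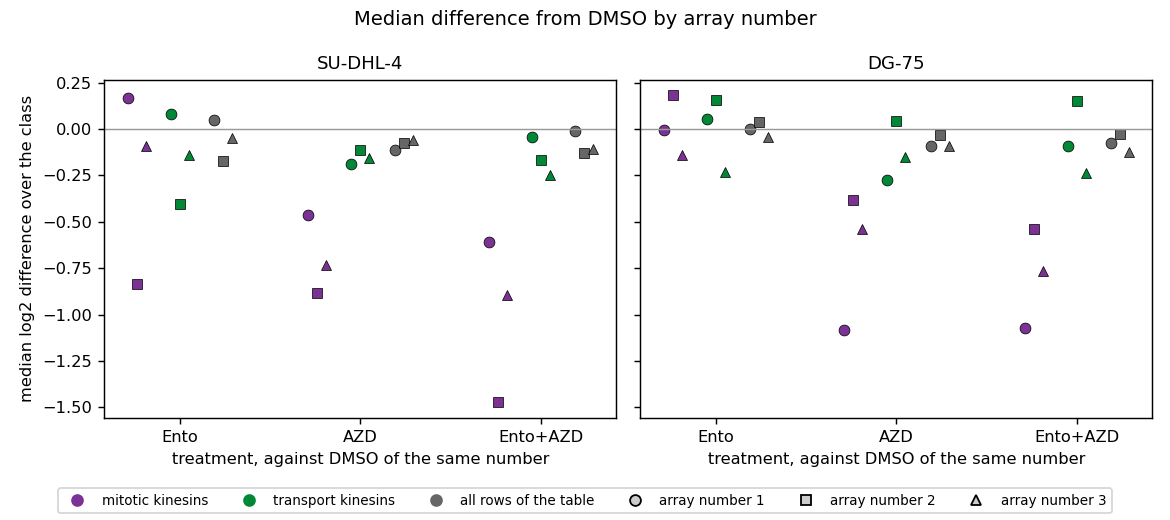
Median log2 difference from the DMSO array of the same number for mitotic kinesins, transport kinesins and all rows, under Ento, AZD and Ento+AZD in each line. Under AZD and Ento+AZD every mitotic median is negative (-0.38 to -1.47), whereas under Ento it ranges from -0.84 to 0.18.

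Each single agent was compared with DMSO in the same model. Under Ento no kinesin was called in SU-DHL-4, beside 0.0508% of all rows called. At an unadjusted p under 0.05 in limma stood 2 of 42 kinesins and 8.59% of all rows. None was called in DG-75 either, beside 0.00391% of all rows called, with 1 of 42 kinesins and 2.81% of all rows at that unadjusted p. Over both lines none was called, beside 0.00782%, with 0 of 42 kinesins and 6.36% of all rows at that p. The median mitotic change was -0.31 for SU-DHL-4 and 0.03 for DG-75. In SU-DHL-4 the same-numbered mitotic medians under Ento were 0.17, -0.84 and -0.09, so that array 2 alone was far from 0, and the median was 0.00 without the 4 arrays numbered 2. KIF14 shows this scatter, with 7.83, 5.87 and 8.12 under Ento.

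Under AZD no kinesin reached both thresholds within a line, where 0.180% of all rows were called in SU-DHL-4 and likewise 0.180% in DG-75. At an unadjusted p under 0.05, 16 of 42 kinesins differed in each line, of which all 16 were lower in SU-DHL-4 and 15 were lower in DG-75, beside 11.5% and 13.8% of all rows at that p in either direction. The mitotic medians were -0.62 for SU-DHL-4 and -0.61 for DG-75. By adjusted p alone KIF14 was lower in DG-75 (-0.82, adjusted p = 0.0495), with 6.50, 7.02 and 6.76 under AZD. No kinesin passed the adjusted p there without the replicate block, with quantile normalization, with array medians subtracted or in 11 of the 12 fits that left out 1 array, while 3 passed without Ento array 3, 6 with genes below the median left out and 10 with a prior variance that follows expression. KIF20A read 7.63, 6.82 and 7.77 under AZD in SU-DHL-4 (change -1.27, adjusted p = 0.182) and 6.70, 7.72 and 7.61 in DG-75 (change -1.19, adjusted p = 0.0847). KIF2C read 7.52, 7.58 and 8.21 in SU-DHL-4 (change -1.21, adjusted p = 0.182) and 7.83, 8.60 and 8.58 in DG-75 (change -0.95, adjusted p = 0.112). All AZD arrays of both genes lay below all DMSO arrays of their line. Among all rows, the share separated in this way under AZD was 12.9% (SU-DHL-4) or 14.6% (DG-75). Over both lines KIF20A (-1.23, SE 0.234, adjusted p = 0.00523) and KIF2C (-1.08, SE 0.217, adjusted p = 0.00725) were called lower, beside 0.250% of all rows. By adjusted p alone 13 kinesins were lower, 12 of them mitotic and the 13th KIF24 (-0.71, adjusted p = 0.011), beside 4.29% of all rows. This count was 4 where the array number was 1 term common to both lines, 1 without the replicate block and 8 without DG-75 AZD array 1. The mitotic kinesins included KIF4B (-0.48, adjusted p = 0.0352) and left out KIF4A (-0.70, adjusted p = 0.0553). Without the replicate block no kinesin was called over both lines under AZD.

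Ento+AZD was then compared with each single agent, to ask what the second agent adds. Against Ento, 2 kinesins were called lower in DG-75, KIF20A (-1.38, SE 0.269, adjusted p = 0.0316) and KIF2C (-1.13, SE 0.241, adjusted p = 0.045), beside 0.598% of all rows. By adjusted p alone 7 mitotic kinesins were lower, beside 1.44% of all rows. Both calls were lost with array medians subtracted, with only the compared treatments fitted, and in 6 of the 12 fits that left out 1 array (DMSO array 3, Ento array 1 or 2, AZD array 3, or Ento+AZD array 1 or 2). The count of 7 became 0 with only the compared treatments fitted or without Ento array 1 or 2 or Ento+AZD array 1 or 2, 2 without Ento+AZD array 3, 3 without DMSO array 3, and 4 without AZD array 3 or with array medians subtracted. It rose to 11 without AZD array 1 and to 12 with genes below the median left out or with a prior variance that follows expression. In SU-DHL-4 none was called against Ento, beside 0.0821% of all rows, and 12 of 42 had an unadjusted p under 0.05, each of them lower, beside 9.67% of all rows at that p. Against AZD no kinesin was called in SU-DHL-4, beside 0.0274% of all rows called, or in DG-75, beside 0%. At an unadjusted p under 0.05 stood 3 of 42 kinesins in SU-DHL-4, beside 7.03% of all rows, and 0 of 42 in DG-75, beside 4.03%.

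For KIF20A, Ento+AZD differed from AZD by -0.56 in SU-DHL-4 (95% confidence interval -1.30 to 0.19) and by -0.20 in DG-75 (-0.79 to 0.39). Both intervals hold 0. The interval of SU-DHL-4 also holds a further fall of 2-fold, and that of DG-75 does not. The mitotic median against AZD was -0.43 in SU-DHL-4, -0.11 without the 4 arrays numbered 2, -0.15 without Ento+AZD array 2 and -0.24 without AZD array 2. In DG-75 it was -0.16, with values from -0.31 without AZD array 1 to -0.049 without AZD array 2. AZD against Ento gave 0 called kinesins in both lines, beside 0.379% of all rows called in SU-DHL-4 and 0.344% for DG-75. At an unadjusted p under 0.05 stood 4 of 42 kinesins for SU-DHL-4, beside 9.77% of all rows, and 15 for DG-75, beside 14.1%.

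Whether the combination departed from what the single agents add up to was tested as well. No kinesin was called in SU-DHL-4 or in DG-75, beside 0% of all rows in both lines. At an unadjusted p under 0.05 stood 3 of 42 kinesins in SU-DHL-4, beside 4.99% of all rows, and 0 of 42 in DG-75, beside 2.63%. For KIF2C the departure was 0.08 in SU-DHL-4 (95% confidence interval -0.93 to 1.10) and -0.18 in DG-75 (-0.93 to 0.57). The median departure of the mitotic kinesins was -0.06 and -0.17.

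Whether the lines responded differently was tested with all 24 arrays in 1 model. No kinesin was called for Ento (beside 0.00782% of all rows called), for AZD (beside 0%) or for Ento+AZD (beside 0.0352%). At an unadjusted p under 0.05 stood 1, 2 and 4 of 42 kinesins, beside 4.43%, 6.16% and 6.51% of all rows. Under Ento+AZD the response of KIF20A differed by -0.44 between SU-DHL-4 and DG-75 (95% confidence interval -1.46 to 0.58) and that of KIF14 by -0.75 (-1.45 to -0.04, adjusted p = 0.734). The larger number of calls in SU-DHL-4 was therefore not shown to be a difference between the lines.

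Among the transport kinesins, no gene was called against DMSO in the main models, those of each line on its own and that over both lines. Under Ento+AZD, 1.09% of all rows were called lower in SU-DHL-4, 0.708% in DG-75 and 0.813% over both lines. In alternative fits KIF16B was called, as given below. KIF5B, the widely expressed conventional kinesin heavy chain, read 9.18, 9.13 and 9.09 under DMSO in SU-DHL-4 and 9.13, 8.80 and 9.17 under Ento+AZD. In DG-75 it read 9.68, 9.27 and 9.79 against 9.46, 9.16 and 9.42. The groups overlapped in both lines, with a change over both of -0.17 (SE 0.113, adjusted p = 0.431). KIF3A, the motor subunit that builds cilia together with KIF3B, had the largest increase of the 42 genes, 0.43 over both lines (SE 0.158, adjusted p = 0.102). It read 6.38, 6.55 and 6.64 against 7.12, 6.58 and 6.75 in SU-DHL-4, and 6.52, 5.43 and 6.61 against 6.92, 6.31 and 7.03 in DG-75, where DMSO array 2 was low. KIF13A, a carrier of recycling endosomes, changed by -0.25 over both lines (SE 0.107, adjusted p = 0.164), from 5.18, 5.38 and 5.36 to 5.07, 4.94 and 5.11 in SU-DHL-4 and from 5.08, 5.13 and 5.67 to 5.32, 4.89 and 4.95 in DG-75. Its values stayed between 4.89 and 5.67 in all arrays.

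KIF5A and KIF16B were the transport kinesins with the largest changes over both lines under Ento+AZD. KIF5A, the conventional kinesin of neurons, read 4.43, 4.01 and 4.08 under DMSO in SU-DHL-4. It read 3.55, 3.44 and 3.56 under Ento, 3.19, 3.32 and 3.37 under AZD and 3.29, 3.23 and 3.38 under Ento+AZD. All these values lay below the lowest array median, 4.89, and the T-cell gene CD3E read 3.51 to 4.72 in this line. Each of the 9 treated arrays of KIF5A lay below each of its DMSO arrays, a pattern that was not counted over all rows. Its change was -0.66 under Ento (adjusted p = 0.245), -0.88 under AZD (adjusted p = 0.0396) and -0.87 under Ento+AZD (adjusted p = 0.012), all short of the fold change of 2. Under AZD it was the 1 kinesin that passed the adjusted p in SU-DHL-4. No kinesin passed there without the replicate block, with quantile normalization, with array medians subtracted or in 10 of the 12 fits that left out 1 array. Without the 4 arrays numbered 2, KIF5A changed by -0.98 under AZD (adjusted p = 0.11) and by -0.92 under Ento+AZD (adjusted p = 0.0935). In DG-75 its values of 2.72 to 3.66 overlapped between all 4 treatments, and its Ento+AZD response in SU-DHL-4 differed from that in DG-75 by -0.83 (SE 0.301, adjusted p = 0.573). The treated SU-DHL-4 arrays thus lay within the range of the DG-75 arrays.

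KIF16B, a motor of early endosomes, read 7.28, 7.25 and 7.32 under DMSO in SU-DHL-4 and 6.50, 6.84 and 6.77 under Ento+AZD. In DG-75 it read 5.83, 5.46 and 6.06 against 4.77, 4.02 and 5.51, where the groups overlapped. The change over both lines was -0.80 (SE 0.191, adjusted p = 0.0104), and within the lines it was -0.58 (adjusted p = 0.0948) and -1.02 (adjusted p = 0.13). KIF16B was called in DG-75 where all 24 arrays were fitted together and where only the treatments compared were fitted. The remaining transport kinesins changed by -0.39 (KIF3C) to 0.17 (KIFC2) over both lines, leaving out KIF3A. Among the other kinesins, KIF24 was followed by KIF21B, which slows microtubule growth, with a change of -0.32 (adjusted p = 0.11). KIF21B read 5.99, 6.28 and 6.26 against 5.91, 5.84 and 5.44 in SU-DHL-4, and 6.34, 6.28 and 6.05 against 6.01, 6.05 and 6.01 in DG-75. The remaining 10 genes changed by -0.16 (KIF26A) to 0.15 (KIF9). KIF7, a regulator of Hedgehog signalling, changed by -0.07 (adjusted p = 0.839).

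Under DMSO alone, 4 of the 42 kinesins were called between the lines. The 4 were transport kinesins, and 4 of 42 is a share not far from the 7.20% of all rows called between the lines. KIF16B was higher in SU-DHL-4 by 1.50 (SE 0.263, adjusted p = 0.000175), and its arrays there, given above, lay over 1 log2 unit above those of DG-75. KIF5A was higher by 1.01 (SE 0.203, adjusted p = 0.000788), with 3.30, 2.72 and 3.48 in DG-75. KIF1B, which carries mitochondria and synaptic vesicle precursors, was lower in SU-DHL-4 by 1.79 on the log2 scale (3.46-fold, SE 0.246, adjusted p = 7.84e-06), with 2.92, 2.87 and 3.06 against 4.77, 4.28 and 5.17. KIF13B, which moves membrane cargo to the cell surface, was lower by 1.36 (SE 0.225, adjusted p = 8.49e-05), with 4.80, 4.89 and 5.26 against 6.44, 6.28 and 6.31. The groups did not overlap in any of the 4 genes, which were picked by this same comparison, so this adds nothing to the calls. Under Ento+AZD KIF1B read 3.37, 3.02 and 2.86 in SU-DHL-4 and 4.38, 4.08 and 4.68 in DG-75, with a change over both lines of -0.11 (adjusted p = 0.774). KIF5C, the third conventional heavy chain, was higher in SU-DHL-4 by 0.94 (adjusted p = 0.00529), short of the fold change. No mitotic kinesin passed the adjusted p, and KIF20A differed by 0.15 (SE 0.511). The fold change of KIF5A, 2.01, lay at the threshold, and its call was lost without SU-DHL-4 DMSO array 1 (0.88) or DG-75 DMSO array 2 (0.79), and with quantile normalization (0.99).

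**Figure D5:**
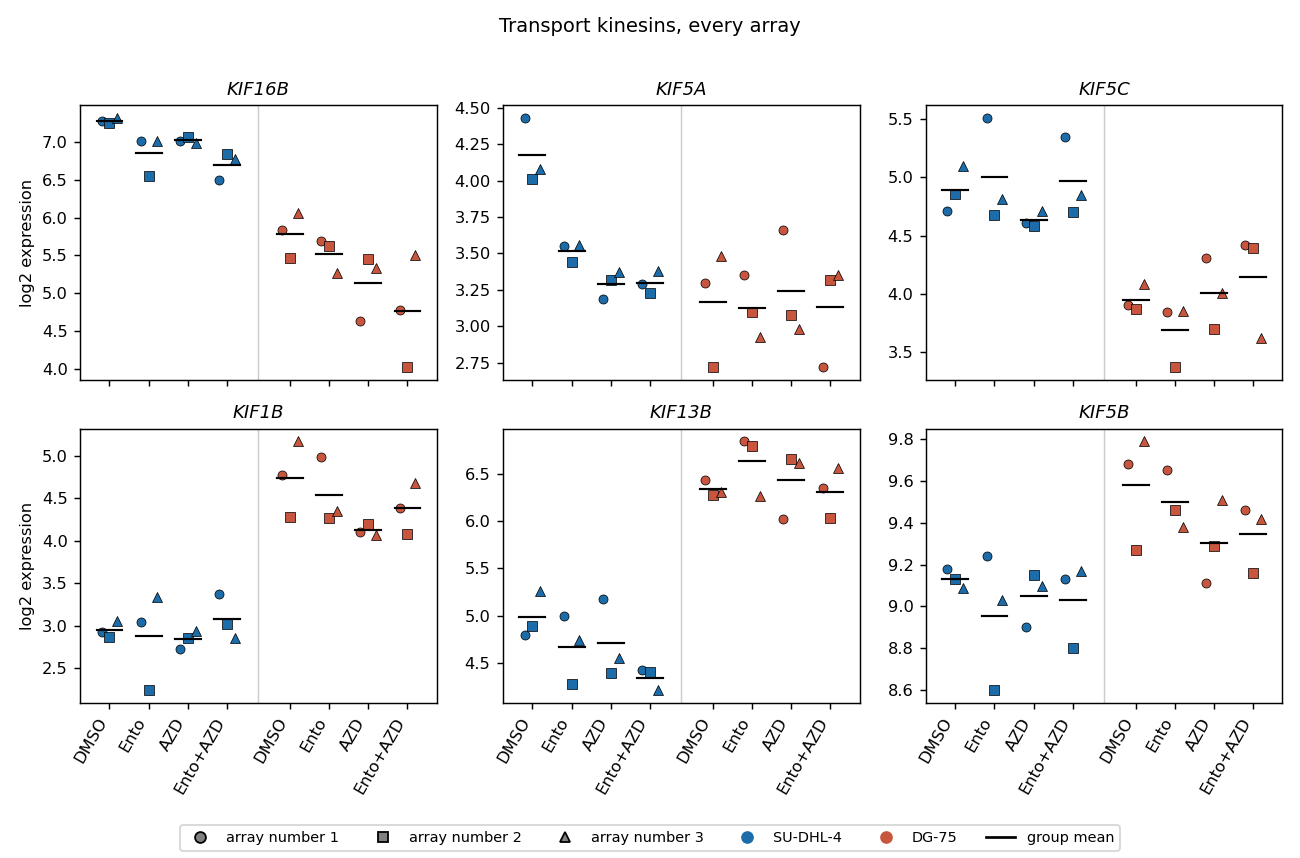
Log2 expression of 6 transport kinesins in each of the 24 arrays by line and treatment, with the marker giving the array number and the line the group mean. KIF16B, KIF5A and KIF5C have higher and KIF1B and KIF13B lower DMSO values in SU-DHL-4 (blue) compared with DG-75 (red), and the 9 treated SU-DHL-4 arrays of KIF5A lie below its 3 DMSO arrays.

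The partners of both classes were read from lists of genes that bind or direct these motors. All 15 mitotic partners were lower by adjusted p under Ento+AZD over both lines, beside 7.03% of all rows, with a median of -1.08 (all rows -0.07), and 10 of the 15 were called, beside 0.813%. Without the 4 SU-DHL-4 arrays numbered 2 all 15 were again lower by adjusted p, with a median of -0.87, and 4 were called. Of the genes whose products work with the motors described above, PRC1, which recruits KIF4A and KIF14 to the central spindle, fell by 1.47 (SE 0.17, adjusted p = 3.23e-05). RACGAP1, the partner of KIF23, fell by 1.15 (SE 0.128, adjusted p = 2.57e-05). TPX2, which targets KIF11 to the spindle, fell by 1.08 (SE 0.15, adjusted p = 0.000113), and AURKA, the kinase that TPX2 activates, by 1.19. DLGAP5 (-1.31), ECT2 (-1.13), PLK1 (-1.12), HMMR (-1.11), AURKB (-1.01) and PSRC1 (-1.01) were called too. CENPE, the kinesin that carries chromosomes to the spindle equator, changed by -0.94 (adjusted p = 0.000218), short of the fold change.

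The 12 proliferation genes moved with the mitotic motors. All 12 were lower by adjusted p over both lines, beside 7.03% of all rows, with a median of -0.99, and 6 were called, beside 0.813%. Without the 4 SU-DHL-4 arrays numbered 2 all 12 were again lower by adjusted p, with a median of -0.79, and 2 were called. MKI67 fell by 1.09 (SE 0.16, adjusted p = 0.00017). In SU-DHL-4 MKI67 stood at 10.35 ± 0.32 (SD, n = 3) under DMSO and 8.95 ± 0.90 under Ento+AZD, and in DG-75 at 10.38 ± 0.04 and 9.59 ± 0.39. CCNA2 (-1.30), MCM6 (-1.19), MCM4 (-1.15), TOP2A (-1.07) and PCNA (-1.02) were also called. Their part in the change of the mitotic kinesins was not tested.

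Of the 12 transport partners none was called under Ento+AZD over both lines, beside 0.813% of all rows called lower. By adjusted p alone 2 were higher and 1 was lower, beside 1.46% and 7.03% of all rows. KLC1, a cargo-binding light chain of the KIF5 motors, was higher by 0.30 (SE 0.08, adjusted p = 0.0189), MAPK8IP3, a cargo adaptor, was higher by 0.46 (adjusted p = 0.0386), and KIFBP, a protein that binds and holds back several kinesins, was lower by 0.78 on the log2 scale (adjusted p = 0.0132). Of the 16 genes of dynein, the motor of opposite direction, and its cofactor dynactin, 2 were lower by adjusted p, beside 7.03% of all rows. They were DYNC1LI1 (-0.36, adjusted p = 0.0133) and DYNC1I2 (-0.31, adjusted p = 0.0438). Without the 4 SU-DHL-4 arrays numbered 2, KLC1 alone of these genes passed the adjusted p (0.32, adjusted p = 0.0459). Between the lines under DMSO, KIFAP3, the adaptor of KIF3A and KIF3B, was lower in SU-DHL-4 by 1.88 on the log2 scale (SE 0.342, adjusted p = 0.000251), with means of 5.10 ± 0.36 against 6.99 ± 0.54 (SD, n = 3). The motor subunits KIF3A and KIF3B themselves differed by 0.33 (adjusted p = 0.438) and 0.09 (adjusted p = 0.859). KIFBP (-1.04) was also called lower there, MAPK8IP3 (1.29) was called higher, and of the dynein genes DYNLT1 (-3.26) was called lower. That made 1 of the 12 transport partners called higher and 2 lower. Of the 16 dynein and dynactin genes 1 was called lower, beside 7.20% of all rows called between the lines in either direction.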

How the data were processed

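The authors deposited 1 table of log2 expression values, made by robust multi-array average (RMA) normalization of Clariom D arrays with limma, with probes assigned to genes by affycoretools. RMA evens out the distributions of probe intensities between arrays, so that a shift shared by all transcripts would not be seen. Genome build and annotation version are not given in the sources used here. Each of the 24 columns was assigned to 1 array by its label, and 0 per-sample columns were left unused.

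Groups came from the sample labels. Each line was fitted with limma 3.58.1 in R 4.3.3 (lmFit, contrasts.fit, eBayes) on all 25575 rows, with treatment and array number as terms, since the methods of the study name a batch term without explaining it. Same-numbered arrays deviated together only in part, with correlations of -0.11 to 0.39 in SU-DHL-4 (12 of 18 pairs above 0.1) and -0.35 to 0.34 in DG-75 (7 of 18). Comparisons over both lines used all 24 arrays, with treatment shared, a term for the line and array number nested within line. The comparison of the lines under DMSO had no array number term. Adjustment followed Benjamini and Hochberg (Benjamini-Hochberg) over all rows of a comparison. The kinesin genes, classes, lists and tests were chosen with earlier results of these data known. Values by array were given for every called kinesin, for a fixed set of 8 mitotic and 4 transport kinesins whether called or not, and for the 2 kinesins of each class with the largest change over both lines under Ento+AZD; of the partner lists, called genes and a few fixed ones were named. The calculations were tested on simulated data. Promoters were searched with Python 3.11.15. Protein sequences were not used here.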

Additional observations from a re-analysis of the deposited data

How the results depend on the processing

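None of the called kinesins changed direction in the alternatives run. The SU-DHL-4 count under Ento+AZD, 6, became 0 without the replicate block (1 by adjusted p alone, against 9) and 0 without the 4 arrays numbered 2, the latter chosen after seeing the data, and lay between 0 and 9 when single arrays were left out (0 without DMSO array 2 or Ento+AZD array 2, 2 without DMSO array 3 or Ento+AZD array 3). Against Ento it was 0 in SU-DHL-4, became 3 with a prior variance that follows expression and 2 in 1 fit of all arrays, and lay between 0 and 1 without single arrays (1 without DMSO array 2). Under AZD in SU-DHL-4 the count of 0 became 1 without the fold change minimum and lay between 0 and 1 without single arrays (1 without AZD array 2). In DG-75 the AZD count of 0 became 1 with genes below the median left out, 1 with the other prior variance and 1 without the fold minimum, and lay between 0 and 1 without single arrays (1 without Ento array 3). The DG-75 count under Ento+AZD, 2, became 8 without the fold minimum and lay between 0 and 2 without single arrays (0 without any 1 of the DMSO arrays or Ento+AZD array 1 or 2). The DG-75 count against Ento, 2, became 1 with quantile normalization, 0 with array medians subtracted, 1 in 1 fit of all arrays, 0 with only the compared treatments and 7 without the fold minimum, and lay between 0 and 5 (5 without Ento array 3, 0 without DMSO array 3, Ento array 1 or 2, AZD array 3 or Ento+AZD array 1 or 2, and 1 without DMSO array 1 or 2 or Ento+AZD array 3). Over both lines the AZD count of 2 became 0 without the replicate block (1 by adjusted p alone, against 13), 1 with quantile normalization, 1 with medians subtracted and 13 without the fold minimum, and lay between 1 and 2 (1 without SU-DHL-4 DMSO array 2, SU-DHL-4 AZD array 1 or DG-75 AZD array 1). The Ento+AZD count of 6 became 14 without the fold minimum and 2 without the 4 arrays numbered 2, and lay between 2 (without SU-DHL-4 DMSO array 2) and 6. It was 4 with quantile normalization, with medians subtracted or without SU-DHL-4 Ento+AZD array 2. It was 6 without the replicate block, where 14 kinesins again passed the adjusted p. The cause of these shifts was not tested. The array number block changed no other count of called kinesins beyond 1.5 times. The median change of the mitotic kinesins under Ento+AZD stayed between -1.11 and -0.72 in SU-DHL-4 when single arrays were left out and was -0.70 without the 4 arrays numbered 2.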
